A study of Homo sapiens with 12 samples.

Results

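Expression of 10 heat shock protein genes was examined in HUDEP-2 cells after acute stimulation of the Kit receptor and with EGR1 targeted by CRISPR interference. HUDEP-2 is an established human line of immortalised red cell precursors. The genes were HSPA1A, HSPA1B, HSPA8, HSPH1, DNAJB1, HSP90AA1, HSP90AB1, HSPD1, HSPE1 and HSPB1, and they were taken by symbol from a count table of 54628 genes. All 10 were listed, and 9 were among the 15492 genes with enough counts to be tested. HSPA1A was the exception. The 12 libraries formed 4 groups with n = 3 in each. The guide RNA was a scrambled sequence (sgControl) or was aimed near EGR1 (sgEGR1), and every group also carried the KRAB-dCas9 repressor, which was delivered by lentivirus and followed by a sort for GFP, so that each genotype was an infected population and not a clone. Before this step the cells are expanded in medium with SCF, EPO, dexamethasone and doxycycline. All cells were deprived of growth factors for 5 h and then incubated for 1 h with PBS or with 50 ng/mL of the Kit ligand stem cell factor (SCF). The table labels replicates 1 to 3 in each group, and replicate 1 is shown apart throughout.

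Heat shock proteins are molecular chaperones, which bind unfolded proteins and help them fold. The HSP70 proteins, HSPA1A, HSPA1B and HSPA8, bind and release clients in a cycle driven by ATP. J proteins such as DNAJB1 bring clients and stimulate ATP hydrolysis, HSPH1 of the HSP110 family exchanges the nucleotide, and HSP90 proteins receive kinases and hormone receptors from HSP70. In mitochondria, HSPD1 forms the folding chamber and HSPE1 its lid, and HSPB1 is a small ATP-independent chaperone. HSPA8, HSP90AB1, HSPD1 and HSPE1 are made in unstressed cells, whereas HSPA1A, HSPA1B, DNAJB1 and HSPH1 are classical targets of heat shock factor 1 (HSF1), which binds repeats of the unit GAA known as heat shock elements. In red cell precursors HSP70 is known to protect the erythroid factor GATA1 from cleavage.

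Library totals ranged from 23.5 to 32.04 megacounts, and levels are given as counts per megacount scaled by TMM factors (CPM). EGR1 was read first as a check on the labels. It stood at 10.9, 5.99 and 7.45 CPM in sgControl PBS replicates 1 to 3, at 208, 239 and 171 CPM in sgControl SCF, at 2.04, 1.12 and 0.977 CPM in sgEGR1 PBS, and at 40.4, 57.4 and 204 CPM in sgEGR1 SCF. The library labelled sgEGR1 SCF replicate 3 therefore lay within the sgControl SCF range and went against its label, so the SCF calls, the genotype calls after SCF and the replicate 1 calls are also given without it. Replicate 1 of every group stood apart as well. FOS, an immediate early gene, reached 16.7 to 146 CPM in the replicate 1 libraries and 2.53 to 15.5 CPM in the others. Of 13 erythroid markers, 12 to 13 exceeded 3 counts in every library, with a summed level of 12208 to 15210.2 CPM, against 22.9 to 47 CPM for 12 markers of other blood cells. In bulk RNA, less RNA per cell and fewer expressing cells cannot be told apart.

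The 10 genes spanned a wide range of abundance. Corrected for transcript length, the mean over all 12 libraries was highest for HSP90AB1, at 965 CPM per kilobase, followed by HSPA8 at 796, HSP90AA1 at 674 and HSPB1 at 489. HSPD1 lay at 267 and HSPE1 at 203 CPM per kilobase. These chaperonin genes run away from each other on chromosome 2, with 539 bases between their starts. The J protein and HSP110 genes were lower, and few counts were assigned to the inducible HSP70 genes, with a limit given below. DNAJB1 stood at 60.3 and HSPH1 at 34.7 CPM per kilobase, and HSPA1B and HSPA1A at 0.238 and 0.0474. All members combined made up 0.752 to 0.832% of each library, and HSP90AA1 with HSP90AB1 supplied 57.9 to 60.5% of that share.

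The near absence of counts for HSPA1A and HSPA1B has a limit, as it may not be a near absence of transcript. The copies lie 12195 bases apart on chromosome 6, and their transcripts were identical at 91.4% of aligned bases. Of all 75-base windows, the read length of the study, 73.8% of HSPA1A and 70.2% of HSPA1B occurred elsewhere on hg38 primary chromosomes. Those 24 chromosomes were searched and the other contigs of the genome file were not, so copies there would be missed. How reads with several matches were counted is not stated in the sources used here. The corresponding shares were 21.3% for HSPE1, 20.9% for HSPD1, 9.39% for HSPB1, 9.13% for HSP90AA1, 7.26% for HSP90AB1 and 6.76% for HSPA8. For DNAJB1 and HSPH1 it was 0%, so that no 75-base stretch of these transcripts had a second exact match on the chromosomes searched. HSPE1 overlaps the readthrough gene HSPE1-MOB4 and HSPA1B overlaps ENSG00000285565, both on the same strand, so their counts could have been split with these neighbours.

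The promoters were compared because heat shock elements are the feature by which these genes are usually grouped. The 250 bases before the RefSeq start (GRCh38.p14) were read for the start nearest to the canonical GENCODE transcript. Both strands were searched for 2 adjoining heat shock units, GAANNTTC or TTCNNGAA, and for 3 units, in which NNGAA follows the first of these or NNTTC the other, so that every longer match contains the shorter pattern. The shorter pattern was present in 7 of 10 members and in 11.6% of 35116 promoters, and the longer one in HSPA8, HSP90AA1 and HSPD1 and in 0.441% of all promoters. Sequences are printed 5′ to 3′ up to the last base before the start, with the heat shock element letters in capitals. The first belongs to DNAJB1, the member called for SCF. It is followed by the promoters of HSPA8, HSP90AA1 and HSPD1, which carry the longer element and were not called, and by the near-identical pair HSPA1A and HSPA1B.
DNAJB1 (chr19:14518398-14518647, minus strand): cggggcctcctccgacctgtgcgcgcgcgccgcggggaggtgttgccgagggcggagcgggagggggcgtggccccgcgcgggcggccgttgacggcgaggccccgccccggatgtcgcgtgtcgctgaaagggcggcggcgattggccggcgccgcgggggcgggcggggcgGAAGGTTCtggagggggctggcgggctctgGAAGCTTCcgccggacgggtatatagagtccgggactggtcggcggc
HSPA8 (chr11:123062137-123062386, minus strand): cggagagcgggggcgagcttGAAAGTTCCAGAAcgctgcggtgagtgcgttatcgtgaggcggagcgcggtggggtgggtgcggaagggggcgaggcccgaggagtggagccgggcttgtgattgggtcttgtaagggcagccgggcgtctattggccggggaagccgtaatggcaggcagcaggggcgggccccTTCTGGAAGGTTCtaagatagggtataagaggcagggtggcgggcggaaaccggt
HSP90AA1 (chr14:102087045-102087294, minus strand): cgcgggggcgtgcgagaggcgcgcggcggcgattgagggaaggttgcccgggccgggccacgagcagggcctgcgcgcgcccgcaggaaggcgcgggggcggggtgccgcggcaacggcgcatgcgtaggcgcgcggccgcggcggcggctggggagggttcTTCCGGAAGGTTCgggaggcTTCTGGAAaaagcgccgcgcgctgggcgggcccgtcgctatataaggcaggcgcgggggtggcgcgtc
HSPD1 (chr2:197499841-197500090, minus strand): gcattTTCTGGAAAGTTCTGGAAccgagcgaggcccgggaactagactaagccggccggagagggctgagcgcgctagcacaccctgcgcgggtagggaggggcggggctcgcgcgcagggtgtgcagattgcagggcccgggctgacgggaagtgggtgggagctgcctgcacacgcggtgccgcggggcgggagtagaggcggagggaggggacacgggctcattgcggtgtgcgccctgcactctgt
HSPA1A (chr6:31815293-31815542, plus strand): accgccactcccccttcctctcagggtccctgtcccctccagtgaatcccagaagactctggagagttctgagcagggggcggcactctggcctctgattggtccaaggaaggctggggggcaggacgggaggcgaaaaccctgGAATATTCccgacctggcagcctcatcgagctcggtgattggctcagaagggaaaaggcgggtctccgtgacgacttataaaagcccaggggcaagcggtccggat
HSPA1B (chr6:31827488-31827737, plus strand): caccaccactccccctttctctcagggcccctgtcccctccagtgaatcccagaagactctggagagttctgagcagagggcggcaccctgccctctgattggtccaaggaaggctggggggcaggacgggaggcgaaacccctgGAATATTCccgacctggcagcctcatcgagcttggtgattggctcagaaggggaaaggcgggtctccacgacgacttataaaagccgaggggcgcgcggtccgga

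DNAJB1 held a pair of separated 2-unit elements at -77 to -70 and at -47 to -40 relative to the start. HSPA8 held 3-unit elements at -230 to -218 and at -55 to -43, and HSP90AA1 held one at -88 to -76 with a further 2-unit element at -68 to -61. In HSPD1 overlapping 3-unit matches ran from -245 to -228. HSPA1A and HSPA1B were identical at 93.6% of aligned bases, and each carried 1 exact 2-unit element, followed by a TATA box (TATAAA or TTTATA), which 10.7% of promoters hold. HSPB1 held 1 2-unit element, and no match lay in the windows of HSPH1, HSP90AB1 and HSPE1. The HSPE1 window begins at chr2:197500129, past the end of the HSPD1 window at 197500090. The HSPD1 elements therefore lie between both starts but were outside the bases read for HSPE1. The RefSeq start of HSPH1 lies 484 bases upstream of the canonical transcript, so its window is not the one adjoining that transcript.

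Letters of an EGR1 site (GCGTGGGCG, CGCCCACGC, GCGGGGGCG or CGCCCCCGC) occurred in 5.37% of promoters and in those of HSPA8, DNAJB1 and HSP90AA1, where each match was GCGGGGGCG. In DNAJB1 it spanned -95 to -87 and overlapped a GC box (GGGCGG or CCGCCC, in 42.6% of promoters). AP-1 letters (TGANTCA, in 6.57%) and the CArG box bound by SRF (in 1.16%) were in 0 member windows. A cAMP response element (TGACGTCA, in 1.65%) was in that of HSP90AB1, and the CCAAT box (CCAAT or ATTGG, in 32% of promoters) in those of HSPA1A, HSPA1B, HSPA8 and DNAJB1. These matches describe letters and not occupancy.

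**Figure D1:**
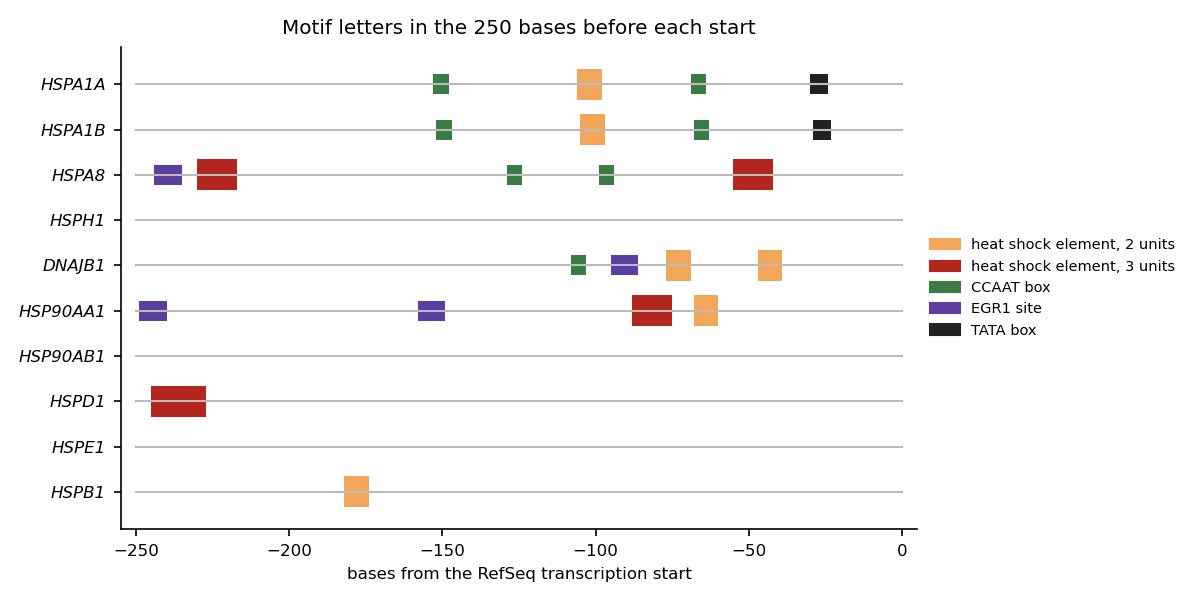
Positions of exact motif matches, as boxes, along the 250 bases before the RefSeq start of each gene (x axis, bases from the start). Red and orange boxes are heat shock elements of 3 and 2 units, and the map shows them in 7 of 10 genes, with the 2 boxes of DNAJB1 within 77 bases of its start. GC boxes and the cAMP response element are not drawn.

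DNAJB1 rose after SCF in both genotypes and was the 1 member to pass the test. The gene (chr19:14514769-14560391 in hg38, minus strand, ENSG00000132002.9) has a canonical transcript of 3 exons. In sgControl cells DNAJB1 stood at 120.5, 117 and 119 CPM in PBS replicates 1 to 3 and at 160.3, 155 and 149 CPM in the SCF replicates. Every SCF library thus lay above every PBS library. The group means were 119 ± 2.03 CPM and 155 ± 5.51 CPM (SD, n = 3), a 1.303-fold rise (log2 fold change 0.38, SE 0.0707, edgeR adjusted p = 0.0138). In sgEGR1 cells the values were 127, 109 and 106 CPM after PBS and 166, 149 and 144 CPM after SCF, again without overlap. This was a 1.34-fold rise (log2 fold change 0.43, SE 0.0709, edgeR adjusted p = 0.00719) from 114 ± 11.6 to 153 ± 11.5 CPM (SD, n = 3). Averaged over genotypes the log2 fold change was 0.40 (SE 0.0501, edgeR adjusted p = 0.000392).

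Among all genes tested, 2.89% were called for SCF in sgControl cells, 2.59% in sgEGR1 cells and 9.03% when the genotypes were averaged, against 1 of 9 members in each case. SCF libraries lay wholly above PBS libraries in 10.4% of all genes in sgControl cells and in 11.2% in sgEGR1 cells, and among the 9 tested members DNAJB1 was the gene to do so in either genotype. Within same-numbered pairs of libraries the ratio of DNAJB1 after SCF to that after PBS was 1.25 to 1.37 and above 1 in 6 of 6 pairs. Replicate 1 gave the highest ratio in sgControl cells, 1.331 against 1.328 and 1.25, and the lowest in sgEGR1 cells, 1.31 against 1.36 and 1.37. With a term for replicate 1 in the model the adjusted p of DNAJB1 fell to 0.000139 in sgControl and 5.72e-05 in sgEGR1 cells, where 8.32% and 8.56% of all genes were called. With the replicate number as a block, 1235 genes (7.97%) were called in sgEGR1 cells in place of 402, and DNAJB1 (log2 fold change 0.43, edgeR adjusted p = 0.000135) was again the 1 member among them.

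Without sgEGR1 SCF replicate 3, DNAJB1 was again the 1 member called for SCF in each genotype and on average, where 2.22%, 1.32% and 6.95% of all genes were called. The DNAJB1 log2 fold change in sgEGR1 cells was then 0.47 (edgeR adjusted p = 0.0132, over a range of 3.31e-06 to 0.0494 for all alternatives). The 7 other abundant members then lay between -0.029 and 0.063 in sgEGR1 cells (lowest edgeR adjusted p = 0.786), and HSPA1B stood at 0.97 (adjusted p = 0.448, over a range of 0.186 to 0.673). In sgControl cells the call was lost when sgControl PBS replicate 2 was left out (log2 fold change 0.37, edgeR adjusted p = 0.0613), when sgControl PBS replicate 3 was left out (0.39, adjusted p = 0.0564) and when sgControl SCF replicate 1 was left out (0.36, adjusted p = 0.05004), and over all alternatives the adjusted p ran from 4.73e-05 to 0.0613. The response differed between genotypes by 0.044 on the log2 scale (SE 0.100, 95% interval -0.17 to 0.26, edgeR adjusted p = 1.0).

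**Figure D2:**
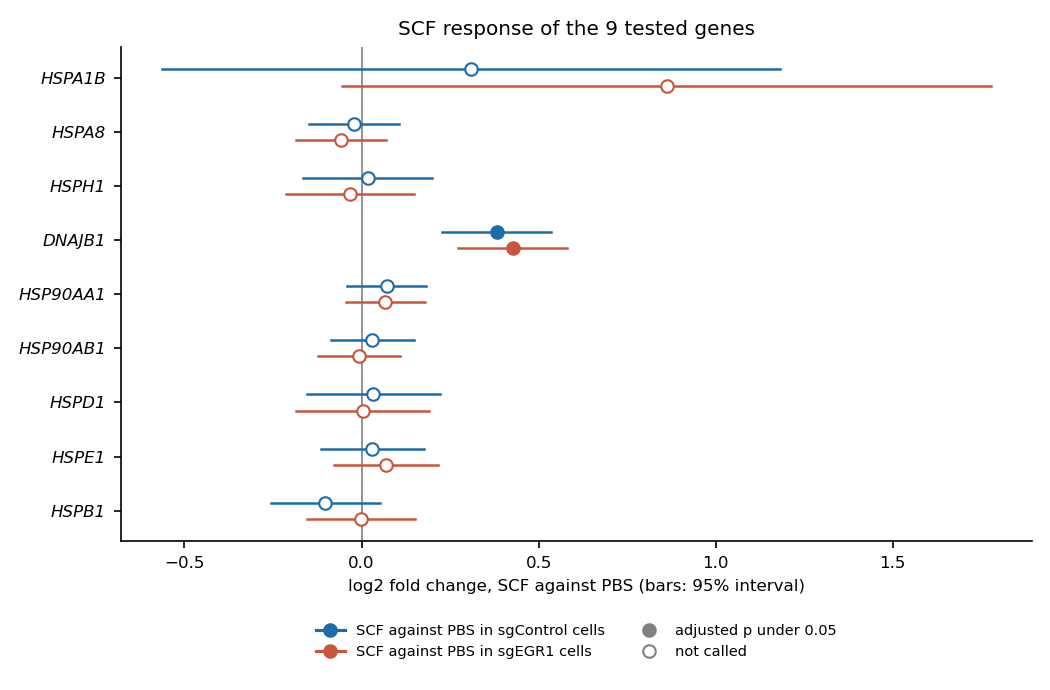
Log2 fold change of SCF against PBS for the 9 tested genes (x axis), with 95% intervals as bars, in sgControl cells (blue) and sgEGR1 cells (red). Values are from the fit without a replicate block. Filled points passed an edgeR adjusted p of 0.05; those of DNAJB1 lie at 0.38 and 0.43, and the remaining 8 genes have intervals that include 0.

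HSPA8, the constitutive HSP70 that works with DNAJB1, did not pass the test. It stood at 1933, 1765 and 1790.03 CPM in sgControl PBS replicates 1 to 3 and at 1948, 1693 and 1768 CPM after SCF, and at 1893, 1792 and 1788 CPM in sgEGR1 PBS and 1831, 1738 and 1691 CPM in sgEGR1 SCF. The PBS and SCF ranges overlapped in each genotype. Its log2 fold change was -0.021 in sgControl cells (SE 0.0585, 95% interval -0.15 to 0.11, edgeR adjusted p = 0.937) and -0.057 in sgEGR1 cells (SE 0.0585, interval -0.18 to 0.070, adjusted p = 0.737). The ratio of HSPA8 to DNAJB1, in CPM not corrected for length, was thus 14.9 to 16.9 in the PBS libraries and 10.9 to 12.2 in the SCF libraries.

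The stress-inducible HSP70 genes, HSPA1A (chr6:31815543-31817946, plus strand) and HSPA1B (chr6:31827738-31830254, plus strand), have a single exon each and remained at the edge of detection after SCF. HSPA1B gave 19, 18 and 9 counts in sgControl PBS replicates 1 to 3 and 28, 17 and 23 counts after SCF, and 13, 10 and 7 counts in sgEGR1 PBS and 29, 15 and 19 counts in sgEGR1 SCF. In CPM this was 0.581 ± 0.202 against 0.722 ± 0.155 in sgControl cells and 0.390 ± 0.155 against 0.705 ± 0.259 in sgEGR1 cells (SD, n = 3), with overlap in both. The log2 fold changes of 0.31 (SE 0.400, edgeR adjusted p = 0.827) and 0.86 (SE 0.420, adjusted p = 0.367) had 95% intervals of -0.56 to 1.18 and -0.05 to 1.78, so that rises of up to 2.27-fold in sgControl and 3.42-fold in sgEGR1 cells lay within the error at this depth. The HSPA1B ratio of SCF to PBS was above 1 in 5 of 6 same-numbered pairs, from 0.799 to 2.43. With a replicate block HSPA1B stood at 1.26-fold in sgControl cells (95% interval 0.727 to 2.17). In sgEGR1 cells it then stood at 1.81-fold (interval 1.02 to 3.22, edgeR unadjusted p = 0.0430, adjusted p = 0.204) and was not called. HSPA1A gave 5, 4 and 3 counts in sgControl PBS, 4, 3 and 5 in sgControl SCF, 1, 4 and 0 in sgEGR1 PBS, and 4, 3 and 3 in sgEGR1 SCF. It was at or below the floor of 3 counts in 6 of 12 libraries, the count of 0 allows up to 0.105 CPM, and no fold change is given. As 1 summed row the copies held 7 to 33 counts per library, with 0 calls in any comparison.

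HSPH1, the HSP110 exchange factor, stood at 199, 171 and 179 CPM in sgControl PBS and 203, 174 and 178 CPM in sgControl SCF for replicates 1 to 3. In sgEGR1 cells it stood at 202, 170.1 and 175 CPM after PBS and 189.6, 168 and 178 CPM after SCF. The highest library of every group was replicate 1, and within each genotype the treatments overlapped. The log2 fold change for SCF was 0.017 in sgControl cells (95% interval -0.16 to 0.20, edgeR adjusted p = 0.972) and -0.032 in sgEGR1 cells (interval -0.21 to 0.15, adjusted p = 0.923).

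The cytosolic HSP90 genes had log2 fold changes of at most 0.071 after SCF and were not called. HSP90AA1, the inducible form, stood at 2197, 2023 and 2129.6 CPM in sgControl PBS and 2353, 2170.3 and 2146 CPM in sgControl SCF, and at 2248, 2047 and 2097 CPM in sgEGR1 PBS and 2232, 2197 and 2264 CPM in sgEGR1 SCF. The ratio of same-numbered libraries was above 1 in 5 of 6 pairs, and the ranges overlapped. The test gave log2 fold changes of 0.071 in sgControl and 0.066 in sgEGR1 cells (SE 0.0512, edgeR adjusted p = 0.620 and 0.618). With a replicate block and averaged over genotypes HSP90AA1 stood at 0.069, with a 95% interval of 0.015 to 0.12. It was not called there (edgeR unadjusted p = 0.0162, adjusted p = 0.0749). HSP90AB1, the constitutive form, stood at 2362, 2424 and 2447 CPM in sgControl PBS and 2394, 2448 and 2546 CPM in sgControl SCF. In sgEGR1 cells it stood at 2328, 2565 and 2612 CPM after PBS and 2342, 2591 and 2531 CPM after SCF, and replicate 1 was the lowest library of every group. The HSP90AB1 log2 fold changes for SCF were 0.031 and -0.0078 (SE 0.0534, edgeR adjusted p = 0.883 and 0.973).

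The mitochondrial chaperonin genes HSPD1 and HSPE1 were also not called. HSPD1 stood at 543, 614 and 631 CPM in sgControl PBS, 554, 623 and 652 CPM in sgControl SCF, 530.1, 622 and 628 CPM in sgEGR1 PBS, and 545, 621 and 619 CPM in sgEGR1 SCF. The 3 values of each group again split by replicate and not by treatment. HSPE1 stood at 113, 114 and 124 CPM in sgControl PBS, 113, 114 and 132 CPM in sgControl SCF, 107, 108 and 101 CPM in sgEGR1 PBS, and 104, 116 and 112 CPM in sgEGR1 SCF. The log2 fold changes for SCF were 0.033 and 0.0037 for HSPD1 (edgeR adjusted p = 0.932 and 0.993) and 0.031 and 0.070 for HSPE1 (adjusted p = 0.911 and 0.714), in sgControl and sgEGR1 cells respectively.

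HSPB1, the small heat shock protein, stood at 399, 407 and 379 CPM in sgControl PBS and 402, 367 and 335 CPM in sgControl SCF, and at 416, 356 and 365 CPM in sgEGR1 PBS and 381, 373 and 381 CPM in sgEGR1 SCF. Ranges overlapped in both genotypes. Its log2 fold change was -0.10 in sgControl cells (SE 0.0701, edgeR adjusted p = 0.594) and -0.0014 in sgEGR1 cells (SE 0.0703, adjusted p = 0.997). Across the 7 abundant members other than DNAJB1, the 95% intervals for SCF ran from 0.838 to 1.17-fold in sgControl and from 0.862 to 1.16-fold in sgEGR1 cells, below the 1.303-fold and 1.34-fold estimates for DNAJB1.

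**Figure D3:**
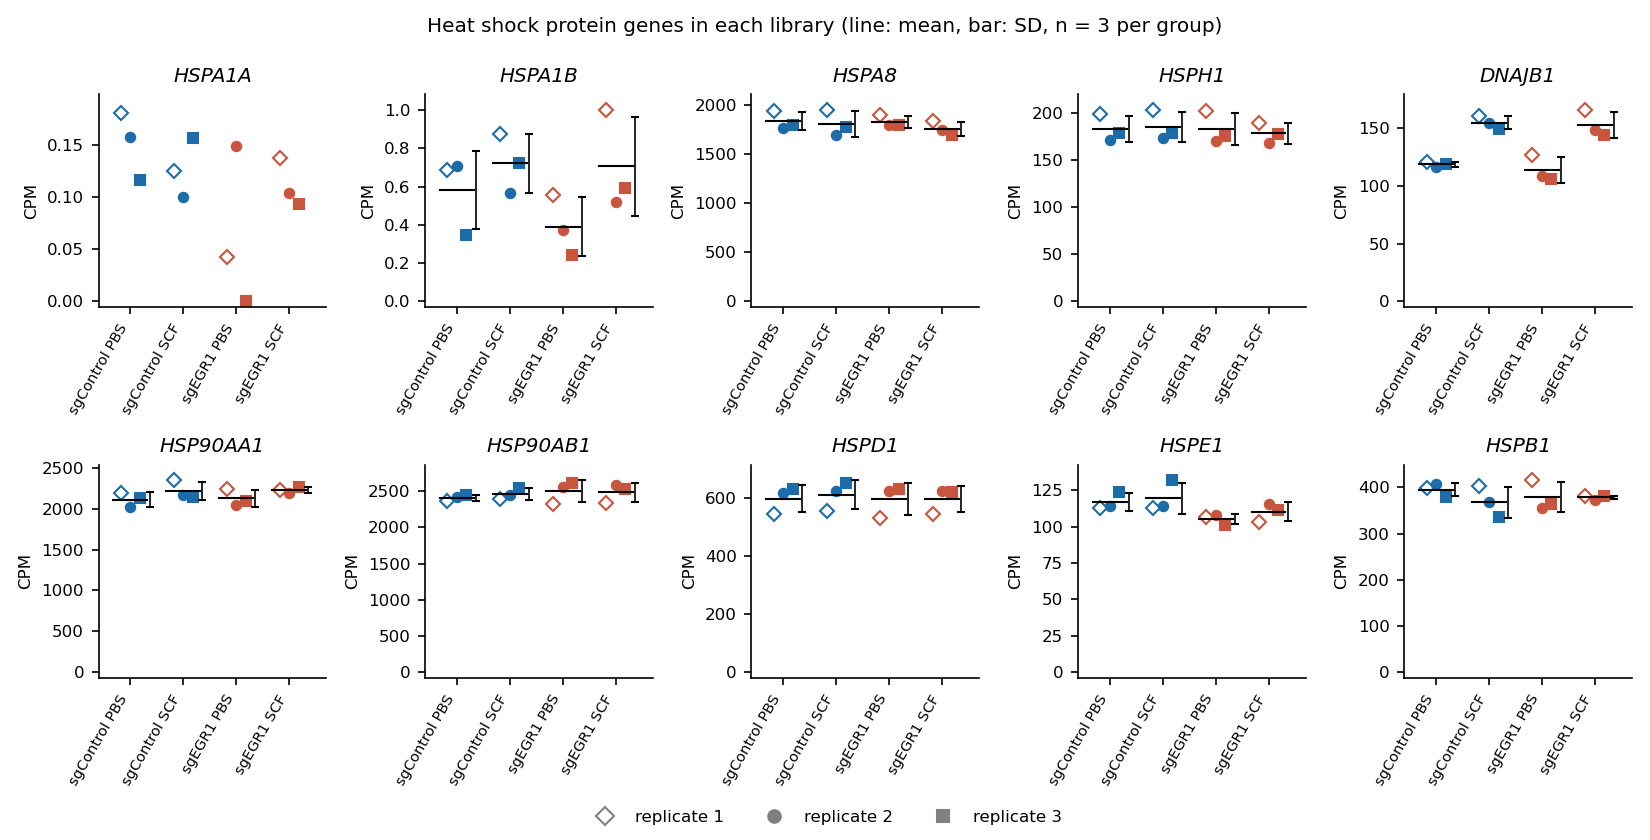
CPM of each gene (y axis, from 0, with a scale of its own per gene) in the 4 groups, with open diamonds for replicate 1, circles for replicate 2 and squares for replicate 3, the mean as a line and the SD as a bar (n = 3); HSPA1A has points alone. DNAJB1 separates SCF from PBS in both genotypes, and the open diamonds sit highest for HSPA8, HSPH1 and DNAJB1 and lowest for HSP90AB1 and HSPD1 in all 4 groups.

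**Figure D4:**
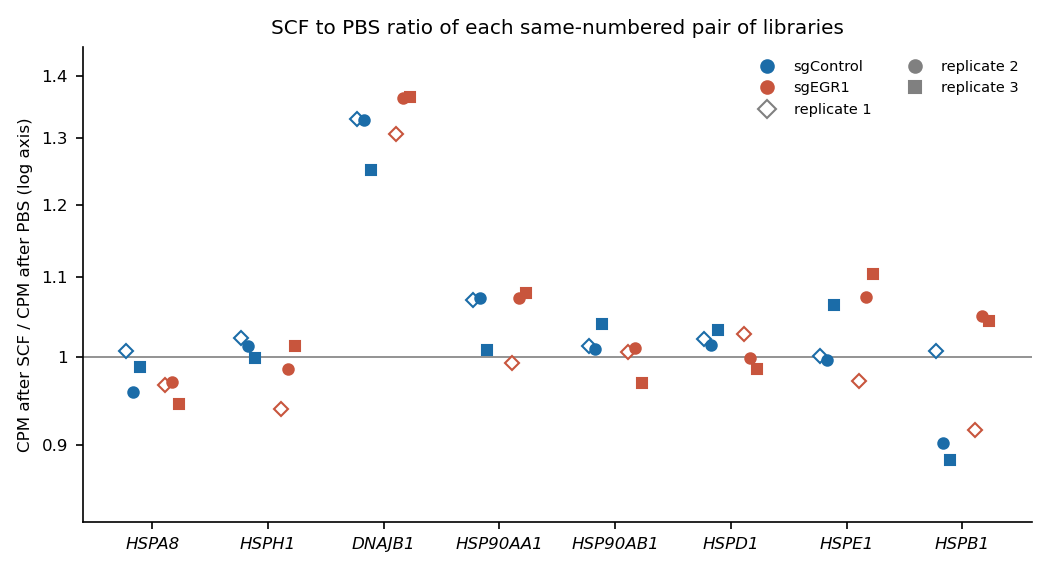
Ratio of CPM after SCF to CPM after PBS (y axis, log scale) in each same-numbered pair of libraries, blue for sgControl and red for sgEGR1, for the 8 abundant genes. The 6 DNAJB1 ratios lie between 1.25 and 1.37, and those of the other genes between 0.884 and 1.105.

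No member was called between genotypes. After PBS and after SCF 0 of 9 members were called in sgEGR1 against sgControl cells, and 0% of all genes were called in each case. EGR1, the targeted gene, was thus not called either. Its PBS levels did not overlap, at 5.99 to 10.9 CPM in sgControl and 0.977 to 2.04 CPM in sgEGR1 cells. In this fit the absence of a call therefore does not show the absence of a difference. The difference in SCF response was likewise called for 0 of 9 members and for 0% of all genes. Over all genes, 715, 361 and 306 had an unadjusted p under 0.05 in these comparisons by edgeR, and DESeq2 called 20, 5 and 4. At an unadjusted p under 0.05, edgeR and DESeq2 each gave 1 member after PBS, 0 after SCF and 0 for the difference in response, and DESeq2 called 0 members in all of these. That member was HSPE1, with 117 ± 6.04 CPM in sgControl PBS and 105 ± 3.54 CPM in sgEGR1 PBS (SD, n = 3). The log2 difference was -0.15 (SE 0.0673, unadjusted p = 0.0410 and adjusted p = 0.999 by edgeR). With a replicate block HSPE1 stood at -0.15 (edgeR adjusted p = 0.395) and was again not called. All 3 sgEGR1 PBS values lay below the sgControl PBS values, as in 4.66% of all genes. After SCF the HSPE1 difference was -0.12 (SE 0.0669, edgeR adjusted p = 1.0), and the ranges overlapped.

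DNAJB1 differed between genotypes by -0.061 on the log2 scale after PBS (SE 0.0711, edgeR adjusted p = 0.999) and by -0.017 after SCF (SE 0.0703, adjusted p = 1.0). The 8 abundant members had log2 differences between -0.15 and 0.053 after PBS and between -0.12 and 0.038 after SCF, with 95% intervals that spanned 0.812 to 1.13-fold and 0.834 to 1.14-fold. For the difference in response the intervals spanned 0.809 to 1.25-fold. Without sgEGR1 SCF replicate 3 the DNAJB1 difference after SCF was 0.020 and that in response 0.085, and 0 members were called in either comparison.

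Replicate 1 was compared with replicates 2 and 3 because it stood apart in every group of these same libraries. The calls therefore describe that difference and are not independent support for it. The replicate 1 libraries may also share a culture or day, so the p-values cover only the spread between libraries. In a model with the group as a further term, 7 of 9 members were called, 5 of them higher and 2 lower in replicate 1, where 26.6% of all genes were called. HSPH1 was higher by 0.19 on the log2 scale (SE 0.0262, edgeR adjusted p = 0.00018), DNAJB1 by 0.13 (SE 0.0327, adjusted p = 0.00876), HSPA8 by 0.12 (SE 0.0234, adjusted p = 0.00255), HSPB1 by 0.11 (SE 0.0383, adjusted p = 0.0485) and HSP90AA1 by 0.082 (SE 0.0261, adjusted p = 0.0347). HSPD1 was lower at -0.21 (SE 0.0225, edgeR adjusted p = 2.7e-05), as was HSP90AB1 at -0.096 (SE 0.0247, adjusted p = 0.0115). HSPA1B at 0.62 (SE 0.260, edgeR adjusted p = 0.101) and HSPE1 at -0.079 (SE 0.0423, adjusted p = 0.198) did not pass the test. The same 7 members were called when sgEGR1 SCF replicate 3 was left out, where 24% of all genes were called. Replicate 3 against replicate 2 gave 0 of 9 members, where 0.00645% of all genes were called. There, 0 members reached an unadjusted p under 0.05 by edgeR or DESeq2.

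Replicate 1 lay above replicates 2 and 3 in all 4 groups for HSPA8, HSPH1 and DNAJB1, as for 12.8% of all genes, and below them in all 4 groups for HSP90AB1 and HSPD1, as for a further 12.8%. HSP90AA1 lay above in 3 groups and between replicates 2 and 3 in sgEGR1 SCF. The ratio of HSP90AA1 to HSP90AB1 in CPM was 0.930, 0.983, 0.966 and 0.953 in replicate 1 of sgControl PBS, sgControl SCF, sgEGR1 PBS and sgEGR1 SCF, and 0.798 to 0.895 in the other 8 libraries. Of 13 erythroid markers, 6 were lower and 1 higher in the same libraries. HBA1 stood at -0.25, AHSP at -0.22 and ALAS2 at 0.13 on the log2 scale (adjusted p of 0.000153, 0.00442 and 0.0129 by edgeR). Of 2 tested markers of other blood cells, ITGA2B stood at -0.93 and SPI1 at 0.41 (adjusted p of 0.000103 and 0.0169 by edgeR). Their part in the result was not tested. The labels give no batch, and the difference cannot be told apart from any condition that the replicate 1 libraries shared.

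The calls for HSPH1 and HSPD1 held in 20 of 20 alternatives, and the others did not. Among PBS, SCF or sgControl libraries alone, HSPH1 and HSPD1 were the 2 members called. Among sgEGR1 libraries alone 5 were called, HSPA8, HSPH1, DNAJB1, HSP90AB1 and HSPD1. Without sgEGR1 PBS replicate 1 the number was 3, with HSPA8. DNAJB1 was then at 0.096 (edgeR adjusted p = 0.0592) and HSP90AB1 at -0.080 (adjusted p = 0.0517), and without sgEGR1 SCF replicate 1 they were at 0.12 (adjusted p = 0.0503) and -0.085 (adjusted p = 0.0598). For DNAJB1 the adjusted p ranged from 0.00181 to 0.410 over all alternatives, with 0.053 on the log2 scale in sgControl libraries alone and 0.21 (adjusted p = 0.00314) in sgEGR1 libraries alone, a difference that was not tested, and for HSP90AB1 from 0.000319 to 0.473. HSP90AA1 and HSPB1 were each called in 7 of 20 alternatives. HSP90AA1 lost the call without any replicate 2 library, without replicate 1 of sgControl PBS, sgControl SCF or sgEGR1 PBS, and without sgEGR1 PBS replicate 3, at adjusted p between 0.0526 and 0.173 and log2 values of 0.064 to 0.082. HSPB1 lost it without replicates 1, 2 or 3 of sgControl SCF or of sgEGR1 PBS, without sgControl PBS replicate 3, and without sgEGR1 SCF replicate 2, at adjusted p between 0.0569 and 0.233 and log2 values of 0.076 to 0.11. Over all alternatives their adjusted p reached 0.367 and 0.255.

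**Figure D5:**
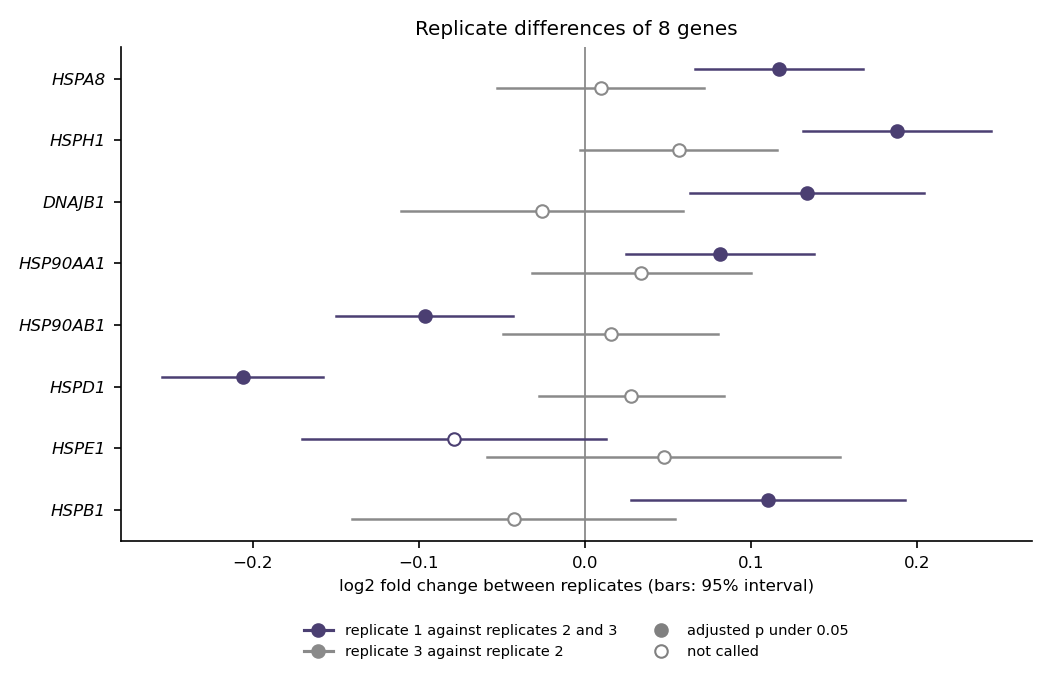
Log2 fold change (x axis) of replicate 1 against replicates 2 and 3 (purple) and of replicate 3 against replicate 2 (grey) for the 8 abundant genes, with 95% intervals as bars and filled points where the edgeR adjusted p was under 0.05. HSPD1 at -0.21 and HSPH1 at 0.19 mark the ends, and the grey points lie between -0.043 and 0.057.

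Other chaperone genes and genes related to them, such as mitochondrial proteases and heat shock factors, were examined from lists of 95 genes. Of these, 85 were tested. SCF called 2 of them higher and 1 lower in sgControl cells and 2 higher and 2 lower in sgEGR1 cells, with a median log2 fold change of 0.033 in each, against -0.0060 and -0.00048 over all genes. These calls were 3.53% and 4.71% of the list genes, beside 2.89% and 2.59% of all genes. GRPEL2, a nucleotide exchange factor of mitochondrial HSP70, rose in both (0.52, SE 0.0697, edgeR adjusted p = 0.00173 in sgControl and 0.58, SE 0.0699, adjusted p = 0.000871 in sgEGR1 cells). Its relative GRPEL1 rose by 0.47 in sgEGR1 cells (SE 0.0928, edgeR adjusted p = 0.0194), and the HSP70 exchange factor BAG5 by 0.25 in sgControl cells (SE 0.0561, adjusted p = 0.0391). DNAJB4, a J protein of the same family as DNAJB1, moved the other way, at -0.77 (SE 0.108, edgeR adjusted p = 0.00265) in sgControl and -0.62 (SE 0.108, adjusted p = 0.00956) in sgEGR1 cells.

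With the replicate number as a block the list calls rose to 7 higher and 3 lower in sgControl cells and to 5 higher and 4 lower in sgEGR1 cells, where 7.64% and 7.97% of all genes were called. Without sgEGR1 SCF replicate 3, GRPEL2 was the 1 list gene called in sgEGR1 cells (0.59, SE 0.0815, edgeR adjusted p = 0.00531), DNAJB4 stood at -0.58 (adjusted p = 0.0526) and GRPEL1 at 0.42 (adjusted p = 0.0882). In sgControl cells BAG5 was then at 0.25 (adjusted p = 0.0540), and GRPEL2 and DNAJB4 were the 2 list genes called.

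By list, in the fit without a block, SCF called 0 of 7 tested HSP70 and HSP110 relatives and 0 of 11 HSP90 co-chaperones in either genotype. It also called 0 of 8 CCT chaperonin subunits, 0 of 15 ER chaperones and 0 of 3 small heat shock proteins in either genotype. Of 5 heat shock factors and proteins that bind them, 0 were called in either genotype. Among 14 J proteins, DNAJB4 was the 1 call in each genotype. Of 9 exchange factors and related co-chaperones of HSP70, 1 was called in sgControl and 0 in sgEGR1 cells. Of 10 mitochondrial chaperones and proteases, 1 was called in sgControl and 2 in sgEGR1 cells. Averaged over genotypes, 5 genes were higher and 4 lower, or 10.6% of the list genes beside 9.03% of all genes, and DNAJB11 at 0.15 and DNAJB9 at -0.34, both J proteins of the ER, were among those added (edgeR adjusted p = 0.0256 and 0.0207). CLPX, a mitochondrial unfoldase, at -0.16 (adjusted p = 0.0106) and SERPINH1, the collagen chaperone, at 0.10 (adjusted p = 0.0421) were the others added. With a block the averaged calls were 18 higher and 9 lower, where 18.1% of all genes were called. Without sgEGR1 SCF replicate 3 they were 4 higher and 3 lower, and DNAJB9 (adjusted p = 0.0521) and SERPINH1 (adjusted p = 0.0935) were not among them. A list of 16 tested HSF1 targets left out DNAJB1 and the other members, and 13 of its genes are also in the other lists. Of the 16, 0 were higher in either genotype, and 0 were lower in sgControl and 1 in sgEGR1 cells. Averaged over genotypes 1 of them was higher, SERPINH1, and 1 lower. Between genotypes and for the difference in response, 0 of 85 genes were called.

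In replicate 1 the chaperone lists also moved in both directions, with 14 of 85 genes higher and 20 lower, beside 2034 higher and 2082 lower (26.6%) of all 15492 genes. Without sgEGR1 SCF replicate 3 the list calls were 14 and 19. HSP90 co-chaperones went both ways, with 4 of 11 higher and 4 lower, among them FKBP4 at 0.28, AHSA1 at 0.22 and PTGES3 at -0.14 (adjusted p of 7.36e-06, 0.00144 and 0.000584 by edgeR). Of 8 CCT subunits, 4 were lower and 0 higher, with CCT8 at -0.15, CCT4 at -0.10 and CCT7 at -0.10 (edgeR adjusted p = 0.00028, 0.00486 and 0.00625). Of 10 mitochondrial chaperones and proteases, 4 were lower, the protease HTRA2 among them, and 1 was higher, the protease LONP1. TRAP1, the mitochondrial HSP90, stood at -0.19 (edgeR adjusted p = 0.000118). HSPA5, the HSP70 of the ER, was higher by 0.31 (edgeR adjusted p = 4.8e-06) and HSPA2 by 0.78 (adjusted p = 2.28e-07), while the J protein DNAJA4 stood at -0.45 (adjusted p = 1.97e-07). In all, 2 of 7 HSP70 and HSP110 relatives were higher, and 2 of 14 J proteins were higher and 3 lower. Of 9 exchange factors and related co-chaperones of HSP70, 2 were higher, the co-chaperone STUB1 among them, and 2 lower. Of 15 ER chaperones 1 was higher and 1 lower, and of 5 heat shock factors and proteins that bind them 1 was higher. The HSF1 target list, which shares genes with the other lists, had 6 of 16 higher and 5 lower. Among small heat shock proteins, CRYAB and HSPB2 were lower (-1.17 and -2.86, edgeR adjusted p = 0.000645 and 0.0102), at means of 1.39 and 0.473 CPM. Replicate 3 against replicate 2 called 0 of the 85 genes.

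The genes whose profile lay nearest to that of HSPA1A and HSPA1B summed were sought among 8709 genes with a mean of at least 10 CPM. Likeness was the root mean square difference of log2 of CPM plus 0.5 over the 12 libraries, each gene centred on its mean. The summed copies stood at 0.244 to 1.14 CPM, so the added 0.5 was of the size of their level and compressed their profile. The candidates, at a mean of 10 CPM or more, were little affected. IQCC and RANGRF were nearest, each at 0.157, followed by E2F6 at 0.175, SRP19 at 0.181, CYCS at 0.184, C2orf69 at 0.188, MPDZ at 0.188 and LOC107984316 at 0.189. The median over all candidates was 0.315, and the SD of the summed copies across libraries was 0.312 on the same scale. These distances thus describe a compressed profile that rests on few counts.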

How the data were processed

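RNA-seq was performed on 12 HUDEP-2 libraries in 4 groups of 3. Per the study's methods, StringTie gave the estimated counts per gene that the authors deposited, from paired-end reads placed on hg38 by HISAT, and these were neither scaled for depth nor pooled; the submitters' processing notes also name bcl2fastq and SAMtools. All 12 columns were used, 0 others held samples, and 0 values needed rounding. A column code that no label uses was taken as sgEGR1, the sole construct in the labels besides the scrambled control. Annotation release, handling of multi-mapping reads and use of strand in counting are not given in the sources used here. Genes were filtered with filterByExpr and scaled by TMM, and 15492 of 54628 were tested in edgeR 4.0.16 (R 4.3.3) by its quasi-likelihood F test, in 1 fit of all 12 libraries, with Benjamini-Hochberg adjustment and a threshold of 0.05. DESeq2 1.42.0, the tool of the study, was an alternative, as were other scaling and filtering, a replicate term, left-out libraries (for the gene lists, a block and 1 left-out library, chosen after the data were seen) and HSPA1A and HSPA1B summed. The code was tested on simulated data.

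Groups came from the labels. The members and gene lists were chosen with earlier results of these data known. All members were named, at most 3 called genes per list and comparison, and the 8 genes nearest in profile. A gene with 3 counts or fewer in a library is at the floor, and intervals and floors cover counting error and the spread between these libraries only. Separate isolation of replicates is stated by the study but not the labels, and p-values measure only the spread between these samples. Totals of 23.5 to 32.04 megacounts gave a median biological coefficient of variation of 0.104. Same-numbered libraries deviated together, with correlations of 0.417, 0.0694 and 0.183 (SCF and PBS, sgControl), 0.377, 0.134 and 0.126 (SCF and PBS, sgEGR1), 0.345, 0.174 and 0.212 (genotypes, PBS) and 0.419, 0.161 and 0.183 (genotypes, SCF). In all but the first comparison every pair exceeded 0.1, and the correlation was highest for replicate 1 in every comparison. These values cannot show that the numbers pair the libraries, because a shift of replicate 1 moves its group mean. The other libraries of each group then deviate together as well. The labels give numbers and no shared day. The main fit held no term for pairing, and the replicate block was an alternative. Without the block the members' SEs for SCF were wider, as for HSPH1 in sgEGR1 cells (0.0831 against 0.0314 with it). Promoters were taken from RefSeq (GRCh38.p14; 10 of 10 members matched, by symbol), and transcripts from GENCODE. The values of 1 called gene of the lists are not reported here.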

Additional observations from a re-analysis of the deposited data

How the results depend on the processing

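Of the 1440 values of 9 members under all alternatives, 94 changed sign, 0 of them called in either fit, and the largest of these was 0.13 in size on the log2 scale. The number of members called in replicate 1 fell from 7 to 2 in PBS, in SCF and in sgControl libraries alone and to 5 in sgEGR1 libraries alone; the cause was not tested. It was 3 to 7 when single libraries were left out. For SCF in sgControl cells leaving out single libraries gave 0 to 1 member.

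For SCF in sgEGR1 cells, uncalled log2 fold changes reversed without a filter on low counts (HSPB1 0.0052), with a replicate block or a term for replicate 1 (HSPB1 0.0019 in each) and with replicates 2 and 3 only (HSPB1 0.066, HSPD1 -0.012, HSPH1 6.9e-05). The cause was not tested. Without single libraries the values ran from -0.077 to 0.026 for HSPA8, -0.026 to 0.10 for HSPD1, -0.045 to 0.075 for HSPE1 and -0.053 to 0.084 for HSPH1 in sgControl cells, and from -0.056 to 0.037 for HSP90AB1, -0.042 to 0.072 for HSPB1, -0.070 to 0.067 for HSPD1 and -0.077 to 0.047 for HSPH1 in sgEGR1 cells. For DNAJB1 they ran from -0.079 to 0.020 between genotypes after SCF and from -0.018 to 0.13 for the difference in response.

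The replicate block kept the DNAJB1 rise in sgControl cells (0.38, edgeR adjusted p = 0.00031, over a range of 4.73e-05 to 0.0613) and changed no other call of a member. Over all genes it raised the calls from 448 to 1184 (SCF in sgControl), from 402 to 1235 (sgEGR1) and from 1399 to 2799 (averaged), and from 0 to 2 between genotypes after PBS and after SCF. A term for replicate 1 gave 1289, 1326, 2868, 4 and 2 in the same order. With that term and without sgEGR1 SCF replicate 3, a choice made after the data were seen, the calls were 1186, 778, 2442, 51 and 38, with 2 for the difference in response. DESeq2 gave 759 and 773 for SCF in each genotype and no adjusted p for HSPA1B there. The libraries compared alone gave 192 and 250, leaving out single libraries as few as 194 and 176, and replicates 2 and 3 alone 690 in sgEGR1 cells. Replicate 1 calls fell from 4116 to 1755 (PBS), 1530.0 (SCF), 2143 (sgControl) and 2079 (sgEGR1). Replicate 3 against replicate 2 gave 1 gene, 4 by DESeq2 and 0 unfiltered. HSPA1A and HSPA1B had 0 to 5 and 7 to 29 counts per library, and whether depth or shared sequence set these counts was not tested.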
